A study of Mus musculus with 2 samples.

Results

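The genes described here are 43 components of the lysosome, the acidic compartment in which cells digest proteins, lipids and glycans. They were chosen by a list of names, with no threshold on measured values but with earlier results of these data known. They were taken as the rows of the deposited gene table that carry those names. All 43 were present among its 12584 genes. They comprise a group of 9 genes for cathepsins and legumain, 10 other hydrolases and cofactors, 9 proteins of the lysosomal membrane, lipid export and regulation, and 15 subunits of the proton pump. They were measured by single-cell RNA sequencing in leukocytes of melanoma tumours. YUMM3.3 is a mouse melanoma line with an activating Braf mutation and no functional Cdkn2a, and C57BL/6 mice received it under the skin. The NTT tumour came from the line naive to targeted therapy. The RTT tumour came from a derived line with resistance to targeted therapy, and both tumours were taken 12 days after injection according to the series record, while the methods of the study give another day for such experiments. Live CD45+ cells were sorted, CD45 being the surface protein that marks leukocytes. Each group held 1 tumour and 1 library, so line, mouse, sort and library cannot be told apart, no test was possible, and every interval given is a 95% interval that covers counting error only.

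Lysosomal proteases work in acid. The acid is supplied by the vacuolar proton pump, a rotary machine with a cytosolic sector, V1, that burns ATP, and a membrane sector, V0, that carries protons into the lumen. Cathepsins cut proteins, some within the chain and some from its ends, while legumain cuts after asparagine and also trims cathepsins to their mature forms. Macrophages, which engulf dead cells and debris, are known for a large lysosomal compartment, and in dendritic cells the same proteases cut antigens and the invariant chain for presentation on MHC class II. The transcription factor TFEB and its relatives are known to drive many lysosomal genes through a short palindrome in their promoters, the CLEAR element.

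Promoter sequences were examined first. Because many lysosomal genes are known to carry the CLEAR element, its counts among the members are descriptions and not a test. RefSeq promoters of assembly GRCm38.p6, spanning 250 bases before to 50 after the start, were at hand for 35 of the 43 members. The full 10-letter CLEAR element was in 0 of these 35 windows and in 0.370% of all 27025 promoters. Its inner 8 letters, TCACGTGA, were counted after the data had been seen. They were in 6 of 35 windows (17.1%), against 2.16% of the 9982 promoters of genes in the data and 1.12% of all promoters. The inner 6 letters, CACGTG, were in 13 windows (37.1%), against 11.6% and 8.09%. Each motif reads the same on both strands, and each longer one contains the shorter ones. The 6 promoters with the 8-letter motif belonged to Ctsa, Ctsd, Mcoln1 and the pump genes Atp6v0d1, Atp6v0e and Atp6v1a. They are printed here because they show which members carry the letters and how the flanks differ, with the 8 letters in capitals.
Ctsa (chr2:164833749-164833778, plus strand): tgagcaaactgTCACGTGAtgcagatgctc
Ctsd (chr7:142387908-142387937, minus strand): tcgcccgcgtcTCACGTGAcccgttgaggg
Mcoln1 (chr8:3500462-3500491, plus strand): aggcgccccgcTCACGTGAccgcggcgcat
Atp6v0d1 (chr8:105566050-105566079, minus strand): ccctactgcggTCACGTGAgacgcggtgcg
Atp6v0e (chr17:26676387-26676416, plus strand): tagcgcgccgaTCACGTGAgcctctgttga
Atp6v1a (chr16:44139373-44139402, minus strand): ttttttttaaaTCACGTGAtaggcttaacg
The Ctsa promoter held a further copy. Lamp1, which encodes the most familiar glycoprotein of the lysosomal membrane, carried the most copies of the 6-letter motif, 4 within the 90 bases before its start, shown with these letters in capitals.
Lamp1 (chr8:13159071-13159160, plus strand): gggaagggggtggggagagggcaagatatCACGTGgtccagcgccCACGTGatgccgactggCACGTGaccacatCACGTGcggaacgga
The log2 ratio of RTT over NTT in all cells had a median of 0.62 for the 13 members with CACGTG and 0.49 for the 22 without. The range was 0.09 to 1.60 with the motif and -0.81 to 1.69 without it. The ranges overlapped, although every member with the motif lay above 0, and a link between motif and ratio was not tested.

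The NTT library held 2975 cells with 19634099 UMIs (unique molecular identifiers, 1 for each captured transcript), and the RTT library held 4840 cells with 44712071. Members were counted with between 832 and 293720 UMIs each over both libraries. UMIs were summed over cells and given as CPM, the count of a gene per 1e+06 UMIs. A single tag is read from the 3′ end of each transcript, so CPM needs no correction for length, although capture can differ between genes. The cell populations are those named in the deposited cell table, grouped into monocytes (1615 NTT and 199 RTT cells), macrophages (582 and 4009) and dendritic cells (492 and 526). Those names rest on clusters to which the same genes contributed, so differences between populations are given as descriptions. The Ptprc transcript, which encodes CD45, was at 1348 CPM in the NTT and 595 CPM in the RTT library, while the melanocyte gene Pmel stood at 0.713 and 0.425 CPM. The libraries shared 7 cell barcodes. A share of a library's UMIs depends on how many cells of a type there are and on the RNA in each, which cannot be told apart over all cells. Myofibrobl, a name for stromal cells, was given to 14 NTT and 24 RTT cells of the CD45+ sort. Doublet treatment is not given in the sources used here, and no doublet caller was run.

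The first comparison asked whether leukocytes of the resistant tumour carried more or less of the lysosomal program as a whole. Members made up 3.18% of the NTT library's UMIs and 4.05% of those of RTT, a log2 ratio of 0.35. The pump group had the largest log2 ratio of the 4 groups, from 0.543% to 0.888% of UMIs (log2 ratio 0.71). Without Ctsk_Macro, a macrophage population found in RTT alone, the pump had 0.46 and the cathepsins and legumain 0.45. Cathepsins and legumain together went from 1.51% to 1.93% (log2 ratio 0.36). Membrane and regulatory members went from 0.684% to 0.783% (log2 ratio 0.20), and the other hydrolases were nearly level at 0.441% and 0.448%. That near-level sum hid members that moved apart, since the median ratio of its 10 genes was 0.43. With TMM or DESeq2 scaling in place of total counts the sum of the other hydrolases lay on the other side of 0, at -0.01 with either. Over all cells, 6 of the 43 members were at least 2-fold higher in RTT and 0 were 2-fold lower. Among all 9537 genes with at least 200 UMIs, 8.74% were 2-fold higher and 10.5% were 2-fold lower. The median member stood at 0.52 and the median of all genes at 0.09, and 37 of 43 members lay above 0 against 55.6% of all genes. The members were chosen with earlier results of these data known, so these contrasts are descriptions and not tests. A further list of lysosomal genes outside the members, described below, had a median of 0.17.

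**Figure D1:**
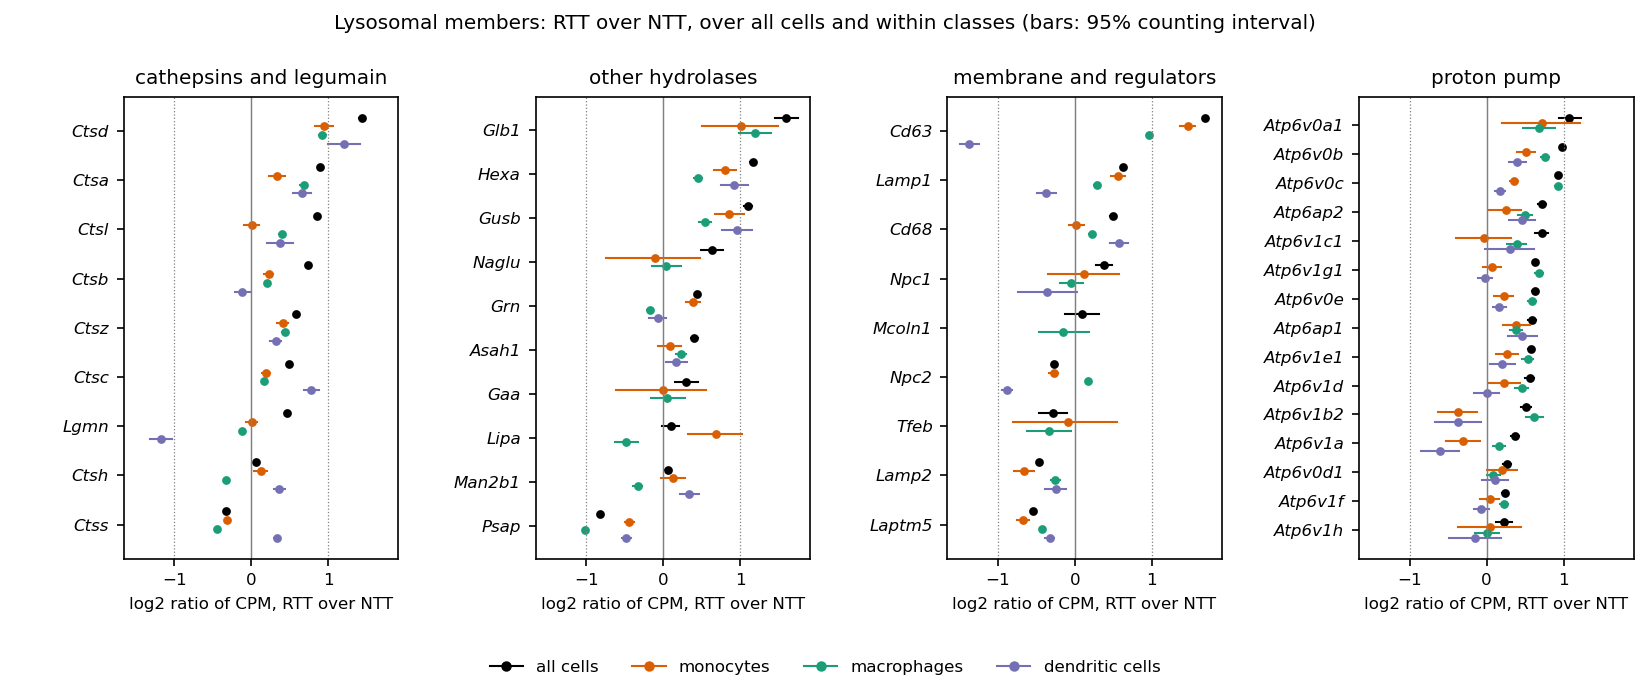
Log2 ratio of CPM, RTT over NTT, for each member (rows) in 4 panels of members, over all cells and within monocytes, macrophages and dendritic cells. Bars are 95% counting intervals, dotted lines mark 2-fold, and members under 200 UMIs in a class are left out. All 15 pump members lie above 0 over all cells (14 without Ctsk_Macro), whereas Psap, Laptm5 and Lamp2 lie below 0 in every scope drawn. The direction of Lamp2 in macrophages was not kept under every alternative setting. In TAM_cycling, a macrophage population, Lamp2 was higher in RTT (log2 ratio 0.20).

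Among the cathepsins, Ctsd differed most. This aspartic protease stood at 441 CPM in the NTT and 1194 CPM in the RTT library, a log2 ratio of 1.44 (1.40 to 1.47). It was also higher within each of these classes, from 348 to 667 CPM in monocytes, from 686 to 1298 CPM in macrophages and from 87.7 to 202 CPM in dendritic cells. In NK_cells, the lymphocyte population, Ctsd was lower in RTT, at 665 and 559 CPM (log2 ratio -0.25, interval -0.48 to -0.03). In monocytes with C1qa, a macrophage gene, under 1000 CPM, no difference in Ctsd was detectable, with a log2 ratio of 0.03 (-0.21 to 0.27). Ctsa, a serine carboxypeptidase that also shields beta-galactosidase and neuraminidase, followed at 529.8 and 985 CPM (log2 ratio 0.89). Ctsl and Ctsb, both cysteine endopeptidases, came next with log2 ratios of 0.86 and 0.73. Ctsc, the dipeptidyl peptidase that activates granule proteases, was at 2254 and 3175 CPM (log2 ratio 0.49). Lgmn, the legumain gene, was at 1658 and 2279.8 CPM over all cells, but in dendritic cells it went the other way, from 408 to 181 CPM (log2 ratio -1.17, interval -1.31 to -1.03). Ctss, the protease of invariant chain processing and the most abundant member in both libraries, was the single cathepsin that was lower, at 5305 and 4239.8 CPM (log2 ratio -0.32). Ctss was lower in monocytes (-0.31) and macrophages (-0.44) and higher in dendritic cells (0.33). Ctsh was nearly level over all cells, at 1029 and 1078 CPM, and Ctsz was higher in RTT in each class, by 0.32 to 0.44 on the log2 scale.

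The other hydrolases ranged from -0.81 to 1.60 in log2 ratio, with 8 of 10 intervals above 0 and 1 below. Glb1, the lysosomal beta-galactosidase, was at 23.1 CPM in the NTT and 70.2 CPM in the RTT library, a log2 ratio of 1.60 (1.46 to 1.75). Hexa, the alpha subunit of beta-hexosaminidase, was at 285 and 643 CPM, and Gusb, the beta-glucuronidase, at 161 and 347 CPM. These were the 3 members of the group past 2-fold. Psap, the precursor of the saposins that lift lipids out of membranes for their hydrolases, was at 2287 CPM in the NTT and 1301 CPM in the RTT library, a log2 ratio of -0.81 (-0.83 to -0.80). Within macrophages it was lower still, from 2644 to 1311 CPM (log2 ratio -1.01). Grn encodes progranulin, which travels with prosaposin and is cut into granulins in the lysosome. Its transcript was at 910.0 and 1239 CPM over all cells but was lower in RTT macrophages (log2 ratio -0.18). Not every alternative setting kept this macrophage direction. Naglu, which degrades heparan sulfate, had a log2 ratio of 0.63, and the acid ceramidase gene Asah1 one of 0.41. Gaa, the acid alpha-glucosidase, had 0.30. Lipa, the acid lipase, and Man2b1, an alpha-mannosidase, were nearly level at log2 ratios of 0.10 and 0.06.

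Membrane proteins and regulators ranged from -0.54 to 1.69 in log2 ratio. Cd63, a tetraspanin of late endosomes, was at 651 CPM in the NTT and 2096 CPM in the RTT library, the largest log2 ratio of any member, 1.69 (1.66 to 1.71). Lamp1 and Lamp2, sister glycoproteins that line the lysosome, moved in opposite directions. Lamp1 was at 687 and 1058 CPM (log2 ratio 0.62), and Lamp2, which also serves autophagy, was at 543 and 395 CPM (log2 ratio -0.46). Laptm5, a lysosomal membrane protein of blood cells that lowers surface receptors, was at 1913 and 1317 CPM, a log2 ratio of -0.54 (-0.56 to -0.52). Cd68, the scavenger receptor that marks macrophages, had a log2 ratio of 0.49. The cholesterol carriers parted as well, with Npc1 at 0.38 and Npc2 at -0.27. Transcripts of the regulators were scarce, Tfeb at 20.0 and 16.4 CPM and the calcium channel gene Mcoln1 at 12.4 and 13.2 CPM. The log2 ratio of Mcoln1 had an interval of -0.13 to 0.31, so no difference was detectable at this depth.

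All 15 pump members were higher in the RTT library over all cells, and all 15 intervals lay above 0. Atp6v1b2, the ATP-binding B subunit, depended on Ctsk_Macro for its direction, with a log2 ratio of 0.52 over all cells and -0.21 without that population. The log2 ratios ran from 0.23 for Atp6v1h, a regulatory subunit of V1, to 1.08 for Atp6v0a1, which lines the path of the protons. Atp6v0c, the proteolipid of the rotating ring and the most abundant pump transcript, was at 1837 CPM in the NTT and 3481 CPM in the RTT library (log2 ratio 0.92, interval 0.91 to 0.94). Its ring partner Atp6v0b was at 442 and 873 CPM, with a log2 ratio of 0.98. In V1, Atp6v1g1, part of the peripheral stalk, was at 581 and 900.0 CPM, whereas the catalytic subunit Atp6v1a was at 196 and 254 CPM. Atp6v1f, in the central shaft, and Atp6v1h had the smallest log2 ratios, 0.24 and 0.23. The accessory proteins Atp6ap1 and Atp6ap2 had log2 ratios of 0.59 and 0.72. All these ratios over all cells also carry the mix of populations. Within single populations with enough UMIs, Atp6v1a was lower in RTT in 5 of 5, whereas Atp6v0b was higher in 8 of 8. The annotation lists 2 processed pseudogenes of Atp6v0c and 1 of Cd63, none of them among the deposited genes, and how reads shared with them were counted is not given in the sources used here.

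Because monocytes prevailed in the NTT and macrophages in the RTT library, the difference in each group's CPM was divided into a portion from population shares and a portion from levels within populations. For cathepsins and legumain, 3549 of 4230.3 CPM came from shares. For the pump, 2358 of 3452 CPM came from shares and 1094 CPM from within populations. The 2 pump sectors differed in this, because 766 of 815 CPM of the V1 difference came from shares, against 1459 of 2429.5 CPM of the V0 difference. For the other hydrolases the portions opposed each other, 523 CPM from shares and -454 CPM from within populations. For membrane and regulatory members the portion from shares was 1078 CPM. With merged classes in place of populations, the portion from shares was 1083 CPM for the pump and 554 CPM for membrane and regulatory members. A population absent from 1 library was given the level of the other library, which applied to Ctsk_Macro, with 0 NTT and 280 RTT cells. Single members differed in their division. For Psap, -750.4 of -986 CPM lay within populations, and for Laptm5 -509 of -596 CPM. For Ctsb, 1163 of 1294 CPM came from shares.

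Levels across populations were then described, with both libraries summed and the 13 populations with at least 50 cells in all compared. The libraries contributed unequally to the populations, so these levels also carry differences between libraries. The macrophage populations held the highest level of 38 of the 43 members. TAM_C1q, macrophages named for the complement gene C1q, led 13 members, among them 6 of the 9 cathepsins and legumain, and TAM_H2Ab1, named for an MHC class II gene, led 5. Ctsb ranged from 4801 CPM in TAM_C1q to 314 CPM in cDC1, the cross-presenting dendritic cells. Cd63 ranged furthest among the membrane members, from 3001 CPM in TAM_C1q to 26.2 CPM in cDC1. Psap and Man2b1 peaked in cDC1, at 3412 and 548 CPM, although cDC1 had the lowest level of 8 other members. Lamp2 peaked in the inflammatory monocytes, Infl_Mono, at 905 CPM, of which the NTT level was 976 and the RTT level 523 CPM. NK_cells had the lowest level of 21 members. No cell held more than 0.483% of any member's UMIs.

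The pump formed a pattern of its own. Ctsk_Macro, the population found in the RTT library alone, led 12 of the 15 pump members and 17 members in all. Atp6v0c was at 8940.2 CPM there, 2.55 times the next population, and Atp6v1b2 was at 918 CPM, 4.36 times the next. Atp6v0d1 (178 against 270 CPM) and Atp6ap1 (319 against 327 CPM) were higher in TAM_C1q than in Ctsk_Macro. The widest exception was Atp6v0a1, at 6.64 CPM against 68.6 CPM in TAM_C1q. The other a-subunit gene Tcirg1, which is not a member and is known from osteoclasts, the cells that resorb bone, was at 413 CPM against 127 CPM in TAM_C1q. The abundant cathepsins among the members were low in Ctsk_Macro, with Ctss at 735 CPM and Ctsc at 455 CPM, whereas Ctsa, at 1098 CPM, was next to TAM_C1q. Ctsk, a cathepsin gene that is not a member, was at 16143 CPM in Ctsk_Macro. Lamp2, at 88.2 CPM, had its lowest level there. Glb1, by contrast, was at 281 CPM, 4.97 times the next population, and Hexa at 1283 CPM. All 6 markers of the osteoclast list (Acp5, Ctsk, Mmp9, Oscar, Nfatc1 and Ocstamp) were detected in this population, at 48689 CPM in sum, against 217 CPM in RTT TAM_Spp1. The 8 macrophage markers summed to 7376 CPM, against 40336 CPM over all RTT macrophages, and Ptprc was at 219 CPM. Without Ctsk_Macro the log2 ratio of the pump group was 0.46 over all cells and 0.39 in macrophages.

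**Figure D2:**
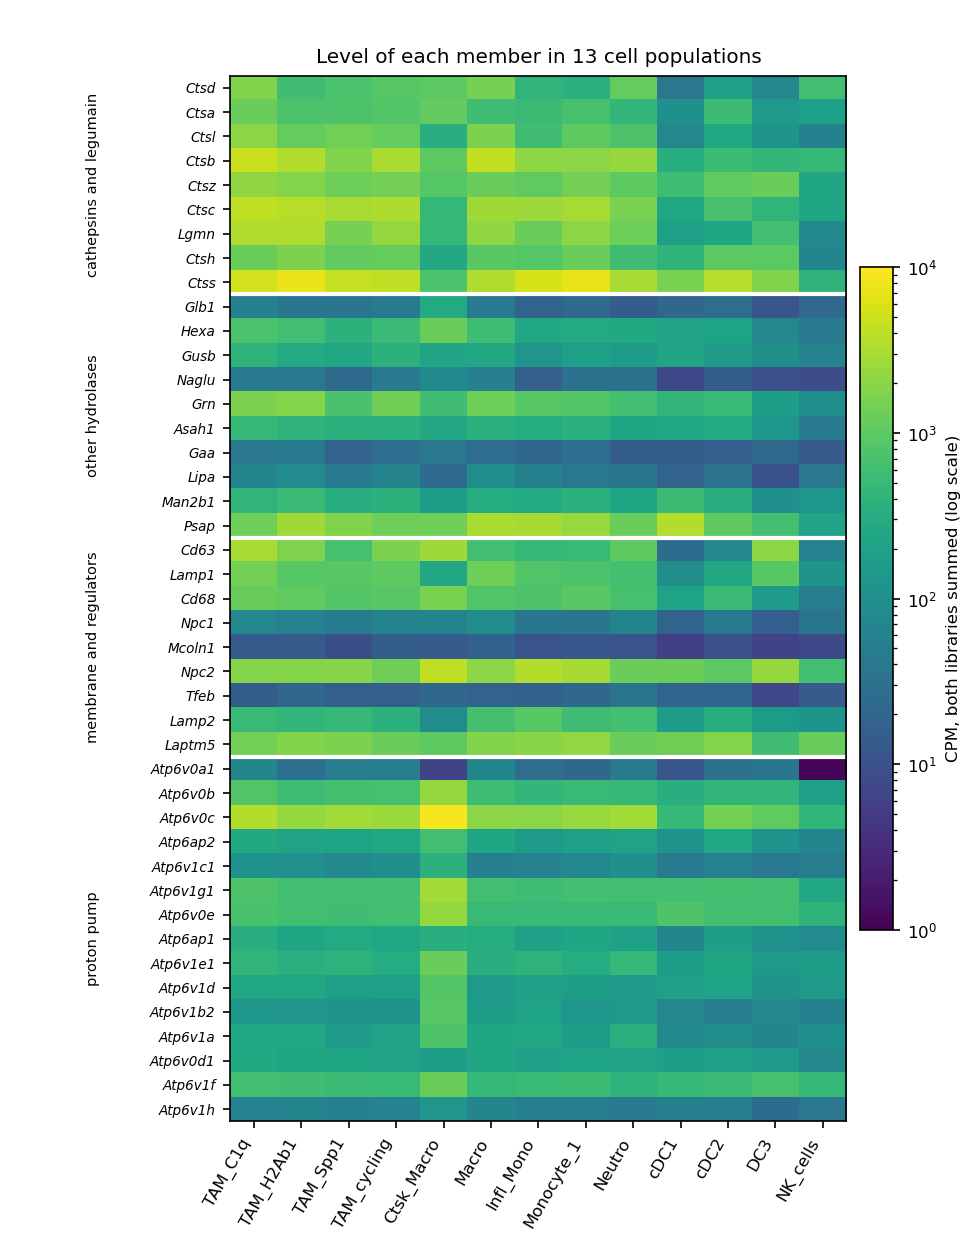
Level of each member (rows, grouped by role) in 13 cell populations (columns) as CPM with both libraries summed, on a logarithmic colour scale. Most pump members are brightest in Ctsk_Macro, where Atp6v0c reaches 8940.2 CPM, and every cathepsin drawn is brightest in TAM_C1q or TAM_H2Ab1.

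Shares were also taken per cell. The median cell of RTT TAM_C1q spent 2.59% of its UMIs on cathepsins and legumain (quartiles 2.18 to 3.02), and that of Ctsk_Macro 0.506% (0.397 to 0.673). This group does not count Ctsk, which is not a member and was at 16143 CPM in Ctsk_Macro. For the pump the medians were 0.852% in RTT TAM_C1q and 2.38% in Ctsk_Macro, whose quartiles (1.82 to 2.82) lay above those of every other population. NK_cells were lowest, with 0.237% in NTT and 0.271% in RTT cells. Neutro cells, the neutrophils, had wide quartiles for cathepsins in the RTT library, 0.345 to 2.37% over 29 cells, of which 15 carried C1qa at 1000 CPM or more. Their macrophage markers summed to 5466 CPM in the NTT and 41223 CPM in the RTT library.

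**Figure D3:**
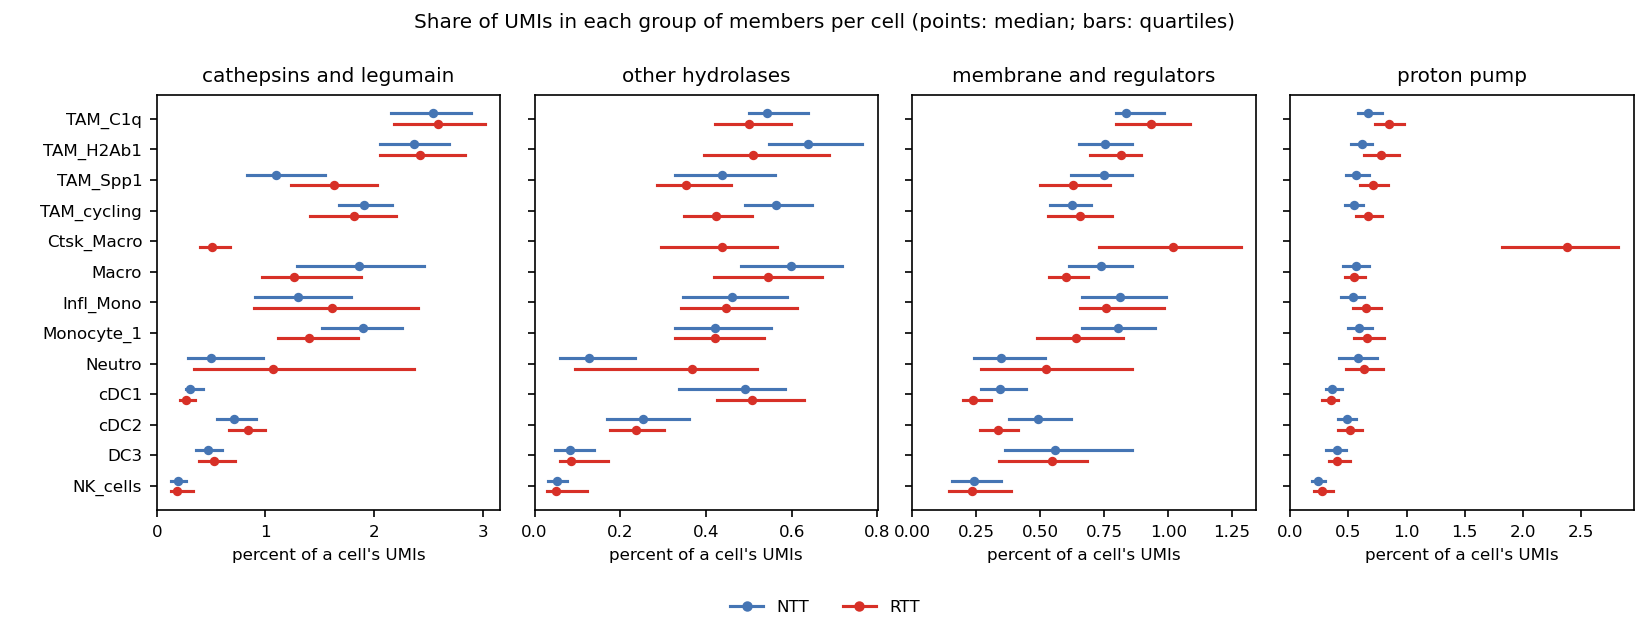
Percent of a cell's UMIs in each group of members, by population (rows) and library (colour). Points are medians over cells and bars are quartiles, which describe cells within a library and not replicates; the pump share of Ctsk_Macro, drawn for RTT alone, lies to the right of all others.

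Within monocytes, 2 of the 42 members with enough UMIs were 2-fold higher in RTT, Cd63 and Glb1, and 0 were 2-fold lower. The background in this class was 2.97% of 5326 genes higher and 6.74% lower. Cathepsins and legumain made up 1.75% of NTT and 1.79% of RTT monocyte UMIs, nearly level. Cd63 was at 405 and 1119 CPM, a log2 ratio of 1.47 (1.37 to 1.56). The 8 macrophage markers moved with it, from 14395 CPM in NTT to 26072 CPM in RTT monocytes, with none at 0. Among monocytes with C1qa under 1000 CPM (884 NTT and 110 RTT cells), Cd63 was lower in RTT, at 199 and 132 CPM (log2 ratio -0.59, with an interval wholly below 0), so its direction reversed. In the same cells the cathepsin sum was lower as well (log2 ratio -0.31), while the V0 sum remained higher (0.26). Among pump members in monocytes, Atp6v0a1 had the highest log2 ratio (0.72) and Atp6v1b2 the lowest (-0.37). Glb1 rested on 169 NTT and 45 RTT UMIs (log2 ratio 1.01, interval 0.51 to 1.50).

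The nearly level cathepsin sum of monocytes combined 2 populations that parted. In Infl_Mono, Ctsb went from 1845 to 3238 CPM and Lgmn from 1048 to 2175 CPM. In Monocyte_1, Ctsb went from 2064 to 1320.4 CPM and Lgmn from 2082 to 1214 CPM. Ctsl and Cd63 parted in the same way. The macrophage markers again moved alongside, from 7852 to 34756 CPM in Infl_Mono and from 18256 to 17158 CPM in Monocyte_1. C1qa reached 1000 CPM in 145 of 620 NTT and 45 of 94 RTT Infl_Mono cells. When cells under that limit were compared, the Infl_Mono ratios turned to -0.53 for Ctsb and -0.83 for Lgmn, on the same side as the -0.66 and -0.81 of Monocyte_1. Among Infl_Mono cells above the limit, Ctsb (1.08) and Ctsd (2.46) were higher in RTT, whereas below it Ctsd had a log2 ratio of 0.06 (-0.30 to 0.41), against 1.44 over all Infl_Mono cells.

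**Figure D4:**
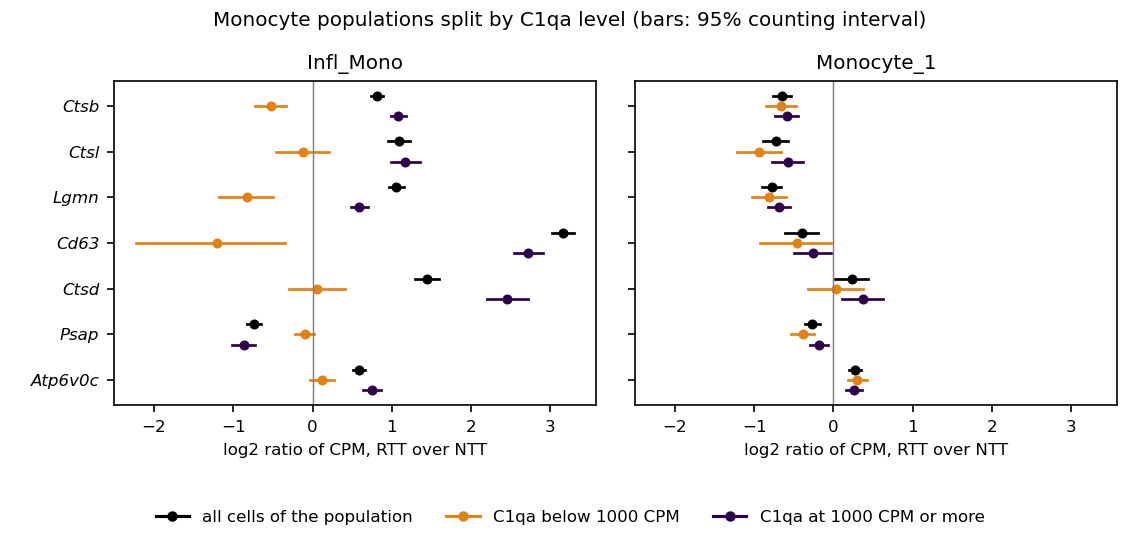
Log2 ratio of CPM, RTT over NTT, of 7 members in Infl_Mono and Monocyte_1, over all cells of each population and over cells below and above a C1qa level of 1000 CPM. Bars are 95% counting intervals; in Infl_Mono the ratios of Ctsb, Lgmn and Cd63 lie on opposite sides of 0 for cells below and above the limit, while in Monocyte_1 they lie below 0 for both.

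Within macrophages, 1 of 43 members was 2-fold higher in RTT, Glb1, and 1 was 2-fold lower, Psap, against a background of 4.61% and 6.18% of 8888 genes. Different populations filled this class in the 2 libraries, so its ratios also carry differences between populations. TAM_C1q held 17 NTT and 2001 RTT cells, TAM_cycling 103 and 947, TAM_Spp1 193 and 719, TAM_H2Ab1 169 and 36, and Macro 100 and 26. The pump sum was higher, from 0.596% to 0.938% of UMIs (log2 ratio 0.65), and the sum of the other hydrolases was lower (-0.33). Glb1 was at 32.9 and 75.1 CPM, and its log2 ratio was 0.64 without Ctsk_Macro. Cathepsins were close to level in sum (log2 ratio 0.04), although 6 of 9 intervals lay above 0 and 3 below. Between the macrophage populations large enough in both libraries, TAM_Spp1, named for osteopontin, had a higher cathepsin sum in RTT (log2 ratio 0.46), and TAM_cycling, the dividing macrophages, did not (-0.07). In TAM_Spp1 the macrophage markers went from 8076 to 22008 CPM in sum. Within the TAM_Spp1 cells under 1000 CPM of C1qa (155 NTT and 301 RTT) the cathepsin ratio was 0.39, and within those above it (38 and 418) it was 0.01. Within single populations the pump sum had a log2 ratio of 0.33 in TAM_Spp1 and 0.29 in TAM_cycling. Ctsd had 0.36 in TAM_Spp1 and 1.02 in TAM_cycling, the latter at 482 and 977 CPM, and Psap was lower in both populations. Cd63 was higher in macrophages as a class, at 1169 and 2289.9 CPM, with log2 ratios of 1.38 in TAM_Spp1 and 0.42 in TAM_cycling. In the class, Atp6v0c had the highest ratio of the pump members (0.92) and Atp6v1h the lowest (0.00).

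Within dendritic cells, 36 members had enough UMIs. Among them 1, Ctsd, was 2-fold higher in RTT, and 2 were 2-fold lower, Cd63 and Lgmn, against 4.83% and 7.56% of 4407 genes. Cd63 was at 574 CPM in NTT and 222 CPM in RTT dendritic cells, a log2 ratio of -1.37 (-1.50 to -1.24). The single populations differed from the class. In DC3, the dendritic cells with the most Cd63, it was at 2154 and 1659.9 CPM, whereas cDC2 had 53.9 and 93.5 CPM and cDC1 had 22.9 and 31.5 CPM. DC3 numbered 135 of 492 NTT and 57 of 526 RTT dendritic cells. Lgmn was lower in cDC2, the largest population, by itself, at 335 and 162 CPM (log2 ratio -1.05), and this ratio was -1.13 without cells of 1000 CPM or more of C1qa. Monocyte markers were lower in cDC2, from 5151 to 753 CPM in sum, and the part of this in the Lgmn result was not tested. Most of that fall was in 1 gene, Plac8, at 4369 and 274 CPM, while Ccr2 was at 562 and 445 CPM. Plac8 was also lower in cDC1 (2996 and 683 CPM) and DC3 (1270 and 31.8 CPM). Cd68 had the highest ratio of the membrane members in dendritic cells (0.57), and Atp6v1a the lowest of the pump members (-0.60). In cDC2 Gusb was higher (log2 ratio 1.51) and Psap and Npc2 were lower (-0.83 and -0.97).

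The 2 sectors of the pump were compared within the 8 populations that had at least 50 cells in each library. The V0 sum was higher in RTT in 7 of the 8 populations, with 7 intervals above 0, and the log2 ratios ran from 0.13 in cDC2 to 0.55 in Infl_Mono among these 7. In cDC1 the V0 ratio was -0.01 (-0.14 to 0.13). The V1 sum had a log2 ratio between -0.16 and 0.06, with 0 intervals above 0 and 2 below. With TMM scaling V0 was above 0 in 7 and V1 in 2 of the 8 populations, and with DESeq2 scaling in 7 and 3, and with either scaling 6 V0 intervals and 0 V1 intervals lay above 0. V1 was higher over all macrophages (log2 ratio 0.45) and nearly level in both TAM_Spp1 (0.04) and TAM_cycling (0.02). Among single subunits, Atp6v0b had ratios above 0 in 8 of 8 populations, with 7 intervals above 0, or 6 with TMM or DESeq2 scaling. Atp6v0c had ratios above 0 in 6 populations, or 5 with TMM or DESeq2 scaling, and 5 intervals above 0. Atp6v0e, a small V0 subunit, had ratios above 0 in 6 and 4 such intervals. The catalytic subunit Atp6v1a was lower in all 5 populations where it had enough UMIs, 4 of them with intervals below 0. With cells of 1000 CPM or more of C1qa left out, the V0 ratio was 0.21 in Infl_Mono, 0.27 in Monocyte_1, 0.39 in TAM_Spp1, 0.11 in cDC2, 0.15 in DC3 and 0.27 in NK_cells. All 8 populations come from the same pair of libraries and are not independent, and the matching counts over all genes were not computed.

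**Figure D5:**
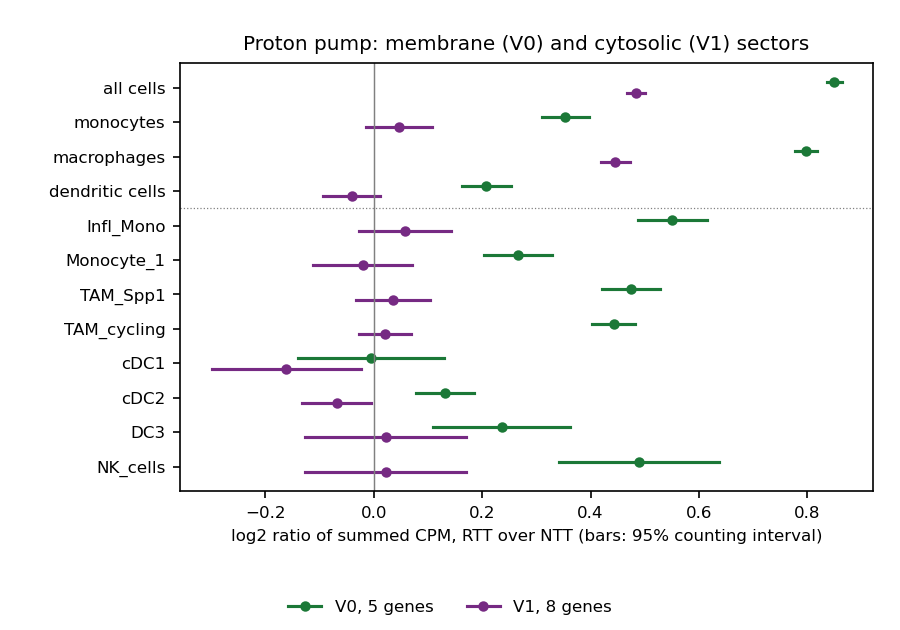
Log2 ratio of summed CPM, RTT over NTT, for the V0 and V1 sectors of the proton pump, over all cells, in 3 classes and in 8 populations. Bars are 95% counting intervals; V0 lies above 0 in 7 of the 8 populations, and no V1 interval of a single population lies wholly above 0.

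Of the 12 members with enough UMIs in all 8 populations, Atp6v0b was higher and Laptm5 was lower in every one. The share of all genes that kept 1 direction across populations was not computed, so these counts have no background. Laptm5 had log2 ratios from -0.69 in Monocyte_1 to -0.28 in DC3, all 8 intervals below 0, and the same held with TMM and DESeq2 scaling. Psap was lower in 6 of 8 populations, the exceptions being cDC1 (0.25) and NK_cells (0.68). In NK_cells the Psap ratio was 0.24 (-0.15 to 0.62) without cells at 1000 CPM or more of C1qa. Hexa and Gusb had ratios above 0 in all 6 populations in which each had enough UMIs, with 6 intervals above 0 for Hexa and 5 for Gusb. With TMM or DESeq2 scaling 5 intervals of Hexa lay above 0, and in Infl_Mono cells under 1000 CPM of C1qa its ratio was 0.34 (-0.12 to 0.77), from 1.36. Ctss, by comparison, was higher in 4 and lower in 4, with 3 intervals above 0 and 3 below. With TMM or DESeq2 scaling it was higher in 3 and lower in 5. Its NK_cells ratio was 0.83, and 0.12 (-0.18 to 0.41) without cells at 1000 CPM or more of C1qa. NK_cells, which had the lowest level of 21 members, had a log2 ratio of 0.69 for cathepsins and legumain. Macrophage markers in NK_cells went from 357 to 3599 CPM, with 1 of 8 at 0 in each library. Without the 4 RTT NK_cells at or above 1000 CPM of C1qa the cathepsin ratio was 0.04 (-0.08 to 0.16).

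A further list of 62 lysosomal genes outside the members was examined for context, of which 56 were in the data and 54 had enough UMIs over all cells. Of these 54, 7 were 2-fold higher and 4 were 2-fold lower, with a median log2 ratio of 0.17. Among all 9537 genes the shares were 8.74% and 10.5% and the median was 0.09. Ctsk, the collagen-cutting cathepsin of osteoclasts, had the largest ratio, counted 4 times in NTT and 66386 times in RTT, followed by Atp6v0d2, the d subunit known from osteoclasts, with 10 and 5148 UMIs. Most of these UMIs came from Ctsk_Macro, which held 65670 of Ctsk and 5087 of Atp6v0d2. Ctsf was at 2.34 and 24.6 CPM. The lowest ratios belonged to Ctsw, the cathepsin of cytotoxic lymphocytes, at 34.4 and 3.18 CPM, to the sialomucin gene Cd164 (log2 ratio -1.33) and to Gla, the alpha-galactosidase (log2 ratio -1.32). The NK and T cell markers moved with Ctsw, from 552 to 45.4 CPM in sum over all cells, and their part in it was not tested.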

How the data were processed

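CD45+ cells of 1 NTT and 1 RTT tumour were profiled with a 10x Genomics 3′ kit. Per the labels and the study's methods, reads were processed with Cell Ranger 6.1.1 on mm10. The authors deposited a matrix of raw UMI counts for 12584 genes in 7815 cells, after their filter on cells, with a cell table that gives library and population. The summed counts of all 7815 cells equalled the deposited totals, and 0 columns of per-sample values were left unused.

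Counts were summed over cells and divided by the total of the scope to give CPM. Ratios of RTT over NTT carry exact conditional binomial 95% intervals, shares Clopper-Pearson and levels Poisson intervals, all of which cover counting error only. With 1 library per group no test was run. A gene entered with at least 200 UMIs over both libraries in the scope, and 2-fold means a log2 ratio of at least 1 in size. Scopes were all cells, 3 classes and the 8 populations with at least 50 cells in each library. C1qa at 1000 CPM marked cells with macrophage transcripts. The intervals were checked on simulated counts that carried counting error alone, so spread between cells or tumours was not examined.

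The members and lists were chosen with earlier results of these data known. Values in full were given, by role group, for members with the 2 highest and 2 lowest ratios and the 2 highest levels, and for the extremes of each class. Alternatives were TMM (edgeR 4.0.16) and DESeq2 1.42.0 scaling, means of per-cell CPM, a minimum of 1500 genes, thinning to 2000 UMIs, no minimum count and sets of cells left out. Motifs were searched in RefSeq promoters of GRCm38.p6. Computations ran in Python 3.11.15 (scipy 1.17.1, numpy 2.4.6, matplotlib 3.10.9, pandas 2.3.3) and R 4.3.3.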

Additional observations from a re-analysis of the deposited data

Results flagged for a closer look

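Members whose log2 ratios of RTT over NTT lay at least 0.5 from 0 on opposite sides, with both counting intervals clear of 0, were looked at again. Classes were compared with each other, and populations only with others of the same class. The limit of 0.5 was chosen after seeing the data, and none of these differences between populations was tested, since each group held 1 library.

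Between the monocyte populations 3 proteases parted. Ctsb had a log2 ratio of 0.81 in Infl_Mono and -0.64 in Monocyte_1, Ctsl had 1.09 and -0.73, and Lgmn had 1.05 and -0.78. In Infl_Mono cells under 1000 CPM of C1qa the ratio was -0.53 for Ctsb and -0.83 for Lgmn, on the same side as in Monocyte_1, and -0.12 (-0.46 to 0.21) for Ctsl. Between the macrophage populations, Ctsh had 0.55 in TAM_Spp1 and -0.63 in TAM_cycling, Lipa had 0.63 and -0.58, and Man2b1 had 0.58 and -0.56. In TAM_Spp1 cells under 1000 CPM of C1qa, the ratio was 0.47 for Ctsh, 0.59 for Man2b1 and -0.61 (-1.42 to 0.21) for Lipa. Between classes, Cd63 had 1.47 in monocytes and 0.97 in macrophages, against -1.37 in dendritic cells. Cd63 in monocytes had -0.59 without cells at 1000 CPM or more of C1qa. Within dendritic cells it had 0.79 in cDC2, and DC3, which held the most Cd63, numbered 135 of 492 NTT and 57 of 526 RTT cells.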

How the results depend on the processing

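No paired analysis was possible because each group held 1 library, and for the same reason no replicate could be left out and no p-value was computed. Each value is given as a log2 ratio of RTT over NTT, as a count or as a portion in CPM. Summed ratios are listed where they left their counting interval. Counts are listed where they changed by more than a set factor or reached or left 0. Portions from population shares have no counting interval and are listed for every alternative. Group names are shortened to cathepsins (with legumain), hydrolases, membrane and pump. With TMM scaling, all cells gave log2 ratios of 0.33 for cathepsins, -0.00914 for hydrolases (reversed), 0.16 for membrane, 0.68 for pump, monocytes gave log2 ratios of 0.00183 for cathepsins with 1 member 2-fold higher, and dendritic cells gave log2 ratios of 0.25 for cathepsins, -0.12 for hydrolases, -0.54 for membrane, 0.0657 for pump. With DESeq2 scaling, all cells gave log2 ratios of 0.32 for cathepsins, -0.0106 for hydrolases (reversed), 0.16 for membrane, 0.68 for pump, monocytes gave 1 member 2-fold higher, macrophages gave log2 ratios of 0.0352 for cathepsins, and dendritic cells gave log2 ratios of 0.28 for cathepsins, -0.52 for membrane, 0.0911 for pump. With the mean of per-cell CPM, all cells gave log2 ratios of 0.42 for cathepsins, 0.0441 for hydrolases, 0.10 for membrane, 0.61 for pump, monocytes gave log2 ratios of -0.088 for cathepsins (reversed), -0.15 for membrane, 0.21 for pump with 1 member 2-fold higher, macrophages gave log2 ratios of 0.20 for cathepsins, -0.28 for hydrolases, 0.17 for membrane, 0.60 for pump with 2 members 2-fold higher, and dendritic cells gave log2 ratios of -0.52 for membrane with 2 members 2-fold higher. With cells of at least 1500 genes alone, all cells gave log2 ratios of 0.35 for cathepsins, 0.21 for membrane, 0.72 for pump, and monocytes gave log2 ratios of 0.0827 for cathepsins. With every cell thinned to 2000 UMIs, all cells gave log2 ratios of 0.43 for cathepsins, 0.0649 for hydrolases, 0.12 for membrane, 0.62 for pump, monocytes gave log2 ratios of -0.0768 for cathepsins (reversed), 0.17 for pump with 1 member 2-fold higher, macrophages gave log2 ratios of 0.21 for cathepsins, -0.27 for hydrolases, 0.17 for membrane, 0.61 for pump with 2 members 2-fold higher, and dendritic cells gave log2 ratios of -0.59 for membrane. Without cells at 1000 CPM or more of C1qa outside the macrophages, all cells gave log2 ratios of 0.52 for cathepsins, 0.051 for hydrolases, 0.28 for membrane, 0.77 for pump, monocytes gave log2 ratios of -0.31 for cathepsins (reversed), -0.0627 for hydrolases, -0.26 for membrane, 0.16 for pump with 0 members 2-fold higher, and dendritic cells gave 2 members 2-fold higher. With macrophages at 1000 CPM or more of C1qa alone, macrophages gave log2 ratios of -0.37 for hydrolases, 0.42 for pump with 0 members 2-fold higher and 0 members 2-fold lower. Without Ctsk_Macro, all cells gave log2 ratios of 0.45 for cathepsins, 0.16 for membrane, 0.46 for pump, and macrophages gave log2 ratios of 0.16 for cathepsins, 0.19 for membrane, 0.39 for pump with 0 members 2-fold higher. Without TAM_cycling, macrophages gave log2 ratios of 0.0904 for cathepsins, -0.31 for hydrolases, 0.24 for membrane, 0.78 for pump with 3 members 2-fold higher. With monocytes and macrophages pooled, macrophages gave log2 ratios of 0.15 for cathepsins, -0.15 for hydrolases, 0.0899 for membrane with 3 members 2-fold higher. With no minimum count, monocytes gave 1 member 2-fold lower, and dendritic cells gave 2 members 2-fold higher. The portion from population shares in CPM was, with NTT levels as weights 3492 for cathepsins, 663 for hydrolases, 756 for membrane, 2236 for pump, and with RTT levels as weights 3606 for cathepsins, 382 for hydrolases, 1400.4 for membrane, 2480.2 for pump, and with merged classes 3346 for cathepsins, 769.8 for hydrolases, 554 for membrane, 1083 for pump. The other settings of the summed shares stayed within the counting interval of the reported value. Of the 1132 ratios of single members under the alternatives, 741 stayed within that interval and the others left it, 63 changed sign and 21 crossed the 2-fold limit. Among members past 2-fold, 1 changed sign, Cd63 in monocytes, at -0.59 without cells at 1000 CPM or more of C1qa. The cause was not tested. Every alternative kept the direction of 42 of 43 members over all cells, the exception being Atp6v1b2 at -0.21 without Ctsk_Macro, of 32 of 36 in dendritic cells, 32 of 43 in macrophages and 26 of 42 in monocytes. The count of promoters with the element was 0 with 10 letters, 6 with 8 and 13 with 6. Leaving out Ctsk_Macro over all cells, counting the 8-letter motif, and splitting or rescaling single populations were alternatives chosen after seeing the data. Depth limits the values of small populations, such as RTT NK_cells with 51 cells, and limits Tfeb, Mcoln1, Gaa, Naglu and Lipa within single populations.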
